A study of Canis lupus familiaris with 222 samples.

Results

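Malignant canine mammary tumors (CMTs) that stained strongly for the estrogen receptor (ER) were compared with CMTs that stained weakly or not at all. The members were tumor libraries with an ER Allred score of 7 or 8 (58 tumors) and of 0 to 2 (17 tumors) in the sample labels, 75 of 222 libraries in all. They were restricted to tumors listed as malignant in the study's clinical table and to simple, complex and mixed histologies, so that rare types such as osteosarcoma and carcinosarcoma were left out. Only 1 of the 17 low tumors had a score of 0 and 16 had a score of 2, so the low group was mostly score 2 rather than free of staining. All 17 carried the label ER negative and all 58 the label ER positive. A further 38 malignant tumors of the same histologies with scores of 3 to 6, all ER positive by label, were used to place the intermediate scores.

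The series holds poly(A) RNA-seq of 158 spontaneous mammary tumors and 64 adjacent normal mammary tissues of female dogs, taken at surgery and kept in RNAlater. Each of the 113 scored malignant tumors came from a different dog. Dogs of the score 0 to 2 group were 10 to 17 years old (median 12.5, 16 dogs with an age) and of 10 breeds. Dogs of the 7 to 8 group were 2 to 16 years old (median 12, 55 with an age) and of 15 breeds, and those of the 3 to 6 group 7 to 19 years old (median 13, 37 with an age). The tumors were bulk tissue, in which fewer cells of a type and less RNA per cell cannot be told apart. The labels call 4 of the 58 high tumors benign.

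ER is a hormone-activated transcription factor of the luminal mammary epithelium, where it drives the expression of receptors, secreted proteins and cell cycle genes in response to estrogen. The Allred score adds a grade for the share of stained nuclei to a grade for the strength of the stain. In mammary tumors of dogs, as in breast cancer of women, loss of ER staining is known to accompany poorly differentiated, high-grade growth. The deposited table identifies genes by Ensembl number, and no table used here pairs these numbers with names. ESR1 (the ER gene), its classical targets, proliferation genes and cell type markers were therefore not analysed here, the labelled tissue was not checked against its markers, and no sequence is shown.

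The first question was what else set the 2 ER groups apart. Histological grade, which scores gland formation, nuclear shape and mitoses, differed most. Grade 3 made up 11 of 17 tumors at scores 0 to 2 (64.7%), 7 of 38 at 3 to 6 (18.4%) and 5 of 58 at 7 to 8 (8.62%). The difference between the outer groups was 56.1 percentage points (two-sided Fisher's exact test, p = 6.95e-06, adjusted p = 5.56e-05 over 8 clinical tables). At score 2, 11 of 16 tumors were grade 3 and 1 was grade 1, while at score 8 only 1 of 38 was grade 3 and 32 were grade 1. Between the outer groups, only 6 of 17 low tumors were below grade 3 and only 5 of 58 high tumors were of grade 3.

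**Figure D1:**
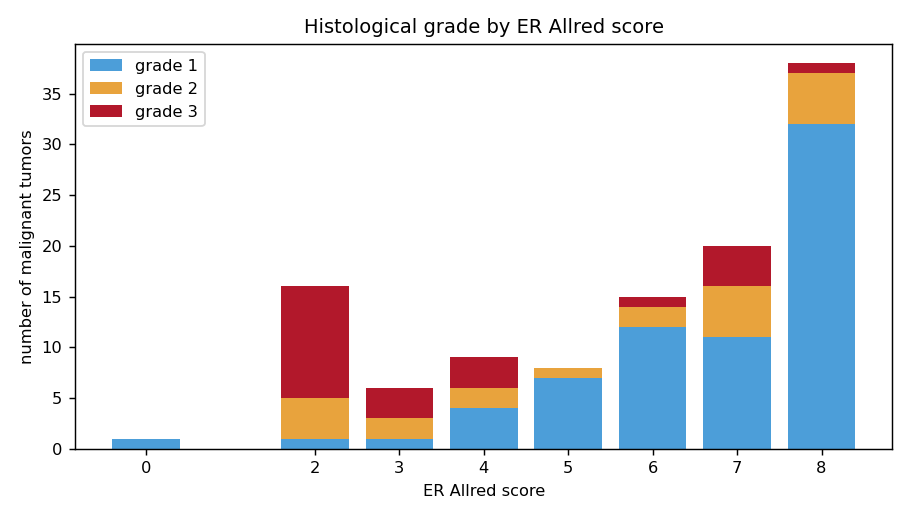
Number of malignant tumors (y axis) at each ER Allred score (x axis), stacked by histological grade. Grade 3 takes 11 of the 16 tumors at score 2 and 1 of the 38 at score 8.

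Histology, invasion and expression class differed between the outer groups too. Carcinomas of simple type, which consist of 1 epithelial cell type, made up 14 of 17 low tumors (82.4%) and 30 of 58 high tumors (51.7%; Fisher's exact p = 0.0277, adjusted p = 0.0443). Among these simple carcinomas, the solid pattern without lumina was found in 8 of 14 low tumors and 2 of 30 high tumors (adjusted p = 0.00147, Fisher's exact test). Lymphatic invasion, meaning tumor cells in lymphatic vessels around the tumor or, where examined, in regional lymph nodes, was recorded in 6 of 17 low tumors (35.3%) and 3 of 58 high tumors (5.17%; adjusted p = 0.00662, Fisher's exact test). The basal class, which was assigned from expression of these same libraries and is therefore no separate measurement, held 11 of 17 low tumors and 8 of 58 high tumors (adjusted p = 3.58e-04, Fisher's exact test). A further 3 features did not pass the test. HER2 score 3 was seen in 17.6% of low and 36.2% of high tumors (adjusted p = 0.271), neutering in 9 of 16 and 20 of 56 dogs (adjusted p = 0.212), and surgery in 2016 in 5 of 17 and 10 of 58 dogs (adjusted p = 0.308, all Fisher's exact tests).

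Against this background, 20 of 14525 tested genes (0.138%) differed between scores 7 to 8 and 0 to 2. A gene was called where limma's adjusted p was under 0.05 and the mean difference was at least 1 on the log2(FPKM + 1) scale, which understates changes of weakly expressed genes. The strong ER group was higher for 13 genes (0.0895% of those tested) and lower for 7 (0.0482%). The absolute differences ranged from 1.01 to 2.02, with a median of 1.43 and a median standard error of 0.344. The calls stood close to the threshold, with adjusted p-values of 0.0288 to 0.0494, although 2131 genes (14.7%) had an unadjusted p under 0.05. For all 20 genes the values of the groups overlapped. The 20 genes were moderately expressed, with a median mean level of 11.1 FPKM against 7.77 FPKM over all genes tested.

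The gene with the largest rise was ENSCAFG00000032243. Its level ran from 0.0430 to 37.5 FPKM with a median of 2.70 in the 17 low tumors, from 0.0513 to 177.7 with a median of 7.41 in the 38 intermediate tumors, and from 0 to 353.0 with a median of 33.97 in the 58 high tumors. All but 1 of the low tumors lay below the median of the high tumors, and 4 low and 4 high tumors were under 1 FPKM. The difference was 2.02 on the log2(FPKM + 1) scale (SE 0.49, 95% confidence interval 1.04 to 3.00, limma adjusted p = 0.0452). Over 10 FPKM were reached by 6 of 17 low, 17 of 38 intermediate and 40 of 58 high tumors. Within the high group, the 5 grade 3 tumors had a median of 1.48 FPKM and a maximum of 8.20, whereas the 53 tumors of grade 1 or 2 had a median of 37.5. None of the 5 strongly stained grade 3 tumors thus exceeded the 10 FPKM that 40 of the 53 others did.

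The second gene that rose, ENSCAFG00000002011, also separated along grade. Its level was 0.126 to 52.1 FPKM (median 1.66) at scores 0 to 2, 0.148 to 400.9 (median 6.69) at 3 to 6 and 0.0871 to 132.6 (median 17.9) at 7 to 8. Again 16 of the 17 low tumors lay under the median of the high tumors. The difference was 1.95 on the log2(FPKM + 1) scale (SE 0.46, 95% confidence interval 1.03 to 2.88, limma adjusted p = 0.0381). In the high group, 4 of the 5 grade 3 tumors were under 1 FPKM, against 2 of the 53 tumors of grade 1 or 2. Across the 38 intermediate tumors, which had no part in choosing them, the 2 genes had a Pearson correlation of 0.76.

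The gene with the largest fall was ENSCAFG00000000656. Its level was 0.404 to 106.1 FPKM (median 25.5) in the low tumors, 0.722 to 26.2 (median 4.39) in the intermediate tumors and 0.103 to 196.1 (median 4.18) in the high tumors. Of the 17 low tumors, 16 were above the median of the high tumors, and the highest value of all was in the high group. The difference was -1.75 on the log2(FPKM + 1) scale (SE 0.41, 95% confidence interval -2.57 to -0.93, limma adjusted p = 0.0364). In the high group the median was 20.6 FPKM in the 5 grade 3 tumors and 3.63 FPKM in the 53 of grade 1 or 2.

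ENSCAFG00000010888 was of a different kind, being near 0 in most tumors and abundant in a few. Its median was 0.562 FPKM in the low tumors, 0.0714 in the intermediate tumors and 0.0731 in the high tumors. Over 10 FPKM were seen in 5 of 17 low tumors, with maxima of 227.1 and 236.0, in 3 of 38 intermediate tumors, the highest at 265.6, and in 1 of 58 high tumors, at 14.7. It was listed at 0 in 16 of the 58 high tumors and in 1 of the 17 low tumors. The difference was -1.62 on the log2(FPKM + 1) scale (SE 0.41, 95% confidence interval -2.43 to -0.81, limma adjusted p = 0.0494).

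**Figure D2:**
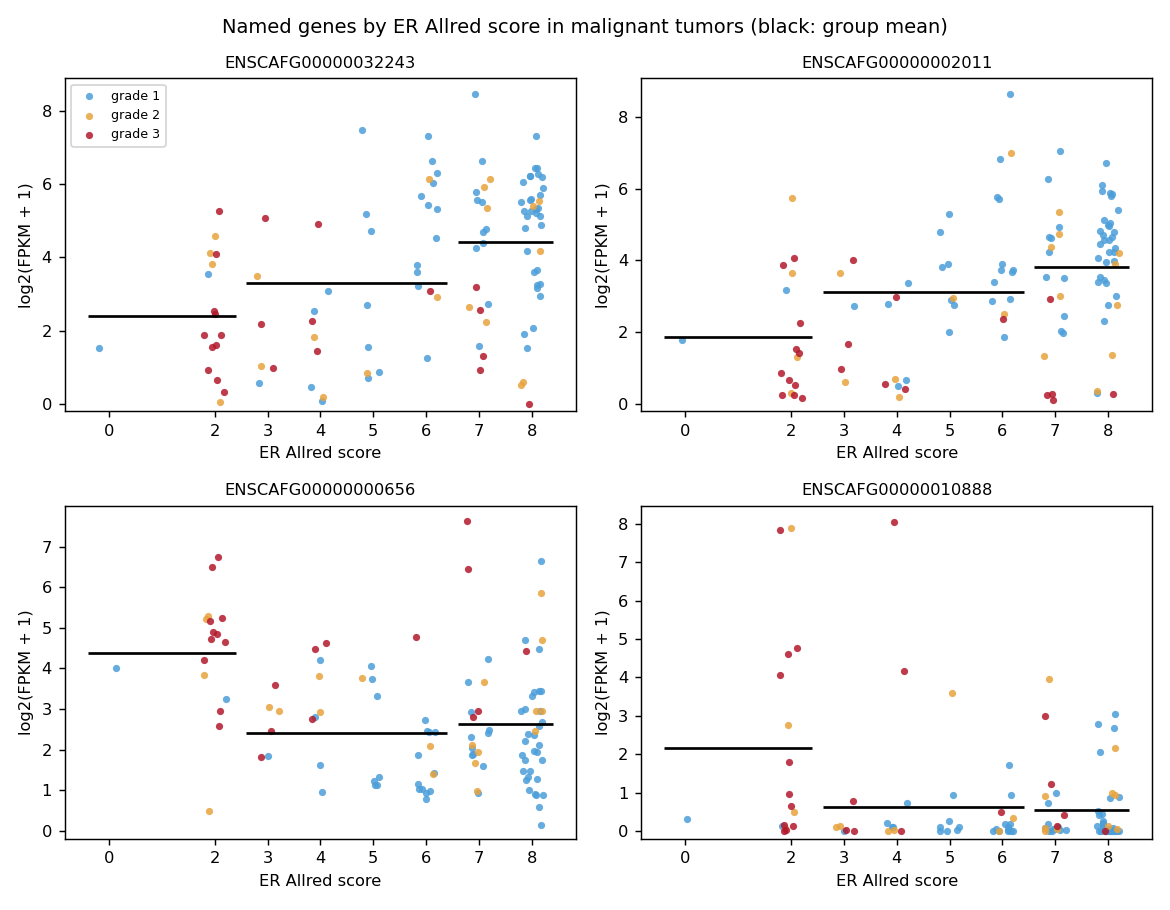
Level of the 4 named genes on the log2(FPKM + 1) scale (y axis) at each ER Allred score (x axis) in 113 malignant tumors, with 1 point per tumor, colored by grade, and black bars at the means of the 3 score groups. The first and second gene rise and the third falls with the score, the fourth is near 0 in most tumors, and the grade 3 tumors at scores 7 and 8 mostly lie low for the first pair.

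For the genes that differed, the tumors of scores 3 to 6 lay nearer to the high group. The position of each gene was scaled so that 0 is the mean of the low group and 1 the mean of the high group. The median position of the intermediate tumors over the 20 genes was 0.863 (quartiles 0.708 and 0.955, range 0.447 to 1.14). Their mean lay between the outer means for 16 genes, beyond the high mean for 4 and beyond the low mean for 0, and 18 of the 20 were nearer to the high mean. The genes that rose stood at a median of 0.762 and those that fell at 0.951. Of the named genes, ENSCAFG00000032243 was at 0.45, ENSCAFG00000002011 at 0.65, ENSCAFG00000000656 at 1.14 and ENSCAFG00000010888 at 0.95. As the outer groups chose the genes, the distance between the ends is itself a selected quantity, and the positions are given as a description.

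The single scores did not form an even ladder. The median position was -0.0486 at score 2 (16 tumors), 0.225 at score 3 (6 tumors) and 0.412 at score 4 (9 tumors). It was 1.10 at score 5 (8 tumors) and 1.21 at score 6 (15 tumors), then 0.835 at score 7 (20 tumors) and 1.09 at score 8 (38 tumors). The step of this median thus lay between scores 4 and 5, and scores 5 and 6 were at or beyond the level of the strongest stain. Single genes differed from it. At score 3 the genes that rose had a median of 0.180 and those that fell 0.697, and at score 4 0.116 and 0.586. ENSCAFG00000032243 was still at 0.30 at score 5 and reached 1.16 at score 6. The share of grade 3 also changed between scores 4 and 5. Grade 3 was found in 3 of 6 tumors at score 3 and 3 of 9 at score 4, but in 0 of 8 at score 5 and 1 of 15 at score 6, and again in 4 of 20 at score 7. Among tumors of grade 1 or 2 alone, the rise from score 4 to score 5 remained, but scores 2 and 3 were not below score 4. The position averaged over the 20 genes in each tumor had a median of 0.962 at score 2 (5 tumors) and 0.710 at score 3 (3 tumors). It was 0.419 at score 4 (6 tumors), 1.13 at score 5 (8 tumors) and 1.20 at score 6 (14 tumors). The only tumor of score 0, which was grade 1, stood at 0.777 as the median over the 20 genes and at 0.801 as their average. Both were closer to the mean of the high group than to that of the low group. Its single genes ranged widely, from -0.477 to 1.77.

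**Figure D3:**
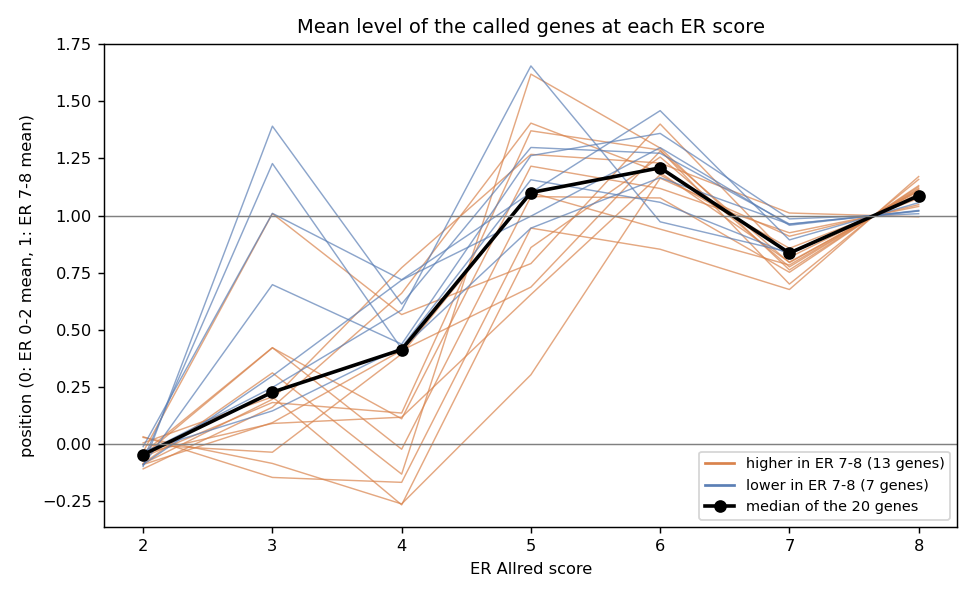
Position of each of the 20 called genes (y axis, 0 at the mean of scores 0 to 2 and 1 at the mean of scores 7 to 8) at each ER Allred score from 2 to 8 (x axis), with genes higher at strong staining in orange, lower in blue and the median in black. The median goes from 0.412 at score 4 to 1.10 at score 5; the single tumor of score 0 is not drawn.

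Within scores 3 to 6, tumors the first comparison had not used, all 20 genes moved with the score in the direction of the outer groups. Over all genes tested, 63.4% did so. Grade was not a term in this fit, and the grade 3 tumors lay mostly at the lower of these scores. In the same tumors, all 13 genes that rose were lower in grade 3 and all 7 that fell were higher. The shared direction therefore does not separate ER score from grade, and a slope among tumors of like grade was not tested within scores 3 to 6. The median slope was 0.588 log2 units per score point for the 13 genes that rose and -0.365 for the 7 that fell. An unadjusted p under 0.05 was reached by 17 of the 20, against 12.0% of all genes. As the 20 genes were correlated across these tumors, the 17 are not separate results. With limma over 14422 genes, however, none was called (0%), with adjusted p-values of 0.112 to 0.797 for the 20 and 1728 genes at an unadjusted p under 0.05. ENSCAFG00000032243 gained 1.01 per point (SE 0.26, limma adjusted p = 0.112) and ENSCAFG00000002011 gained 0.94 per point (SE 0.23, limma adjusted p = 0.112). The slope of ENSCAFG00000010888 was -0.16 per point (SE 0.22), smaller than its error. Across these 38 tumors, pairs of rising genes had a median Pearson correlation of 0.526 (77 of 78 pairs positive), pairs of falling genes 0.505 (21 of 21 positive) and mixed pairs -0.259 (88 of 91 negative).

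When the score was used as a number over all 113 tumors, an analysis chosen after seeing the data, 121 of 14523 genes were called (0.833%), 94 rising (0.647%) and 27 falling (0.186%). A slope of at least 1 log2 unit over the 6 points from 2 to 8 was required here. With histology class in the fit 78 genes were called (0.537%), 75 of them among the 121, and with surgery year 93 (0.64%), 89 of them among the 121. With grade in the fit no gene was called (0%), at 420 genes (2.89%) with an unadjusted limma p under 0.05. The 20 genes all kept their direction in that fit (71.2% of all genes), 5 of them at an unadjusted p under 0.05, and their median absolute slope went from 0.213 to 0.0809 per point. ENSCAFG00000032243 kept 0.28 of 0.41 per point (95% confidence interval 0.11 to 0.46, limma unadjusted p = 0.00207, adjusted p = 1.00).

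The next question was whether the ER groups differed among tumors of like grade and histology. With grade and histology class as terms, limma called 0 of 14525 genes, and 277 (1.91%) had an unadjusted p under 0.05, against 14.7% without these terms. The differences of the 20 genes became smaller while their errors changed little. The median absolute difference went from 1.43 to 0.499 and the median standard error from 0.344 to 0.397, with 19 of 20 genes in the same direction (63.3% of all genes) and 4 at an unadjusted p under 0.05. ENSCAFG00000032243 was left with 0.43 (95% confidence interval -0.70 to 1.56), ENSCAFG00000002011 with 0.23 (-0.79 to 1.25) and ENSCAFG00000000656 with -0.55 (-1.52 to 0.42), all from limma. ENSCAFG00000010888 kept more of its difference, at -1.12 (95% confidence interval -2.16 to -0.08, limma adjusted p = 1.00). These intervals still hold differences over 1, so a remaining difference between ER groups was not detectable with these tumors rather than shown to be absent. Of the single terms, grade alone gave 0 calls and 344 genes at an unadjusted p under 0.05, while histology class alone gave 0 calls and 1593 such genes, with a smallest limma adjusted p of 0.148. The median absolute difference of the 20 genes was 0.535 with grade alone and 1.31 with histology class alone.

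**Figure D4:**
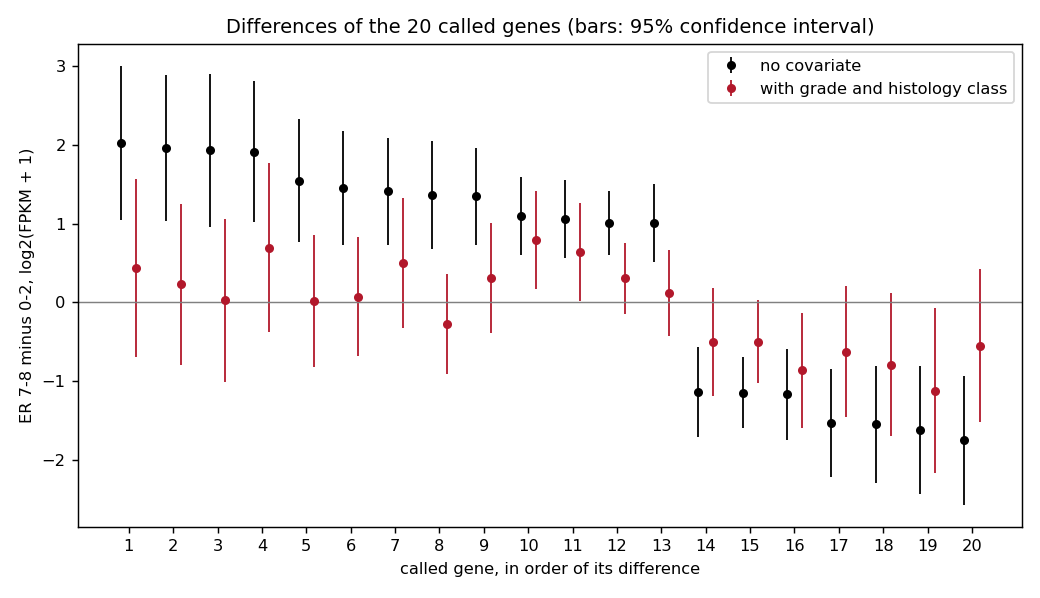
Difference between scores 7 to 8 and 0 to 2 on the log2(FPKM + 1) scale (y axis) for the 20 called genes in order of size (x axis), without covariates in black and with grade and histology class in red; bars are 95% confidence intervals. The median absolute difference is 1.43 in black and 0.499 in red.

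In the same fit, the grade term called more genes than the ER term. Grade 3 against grade 1 gave 430 calls (2.96% of 14525), 99 higher and 331 lower in grade 3, and 12 of the 20 genes of the ER comparison were among them. The 20 genes had been chosen in these same tumors, where ER group and grade overlap, so the 12 are no separate evidence. Within the strongly stained tumors alone, all 13 genes that rose with ER were lower in the 5 grade 3 tumors than in the 53 others (median difference -1.89), and all 7 that fell were higher (median 0.821). Within scores 3 to 6, with 7 grade 3 tumors against 31, the same held for all 13 (median -0.953) and all 7 (median 1.35). Over all genes, 69.3% and 60.8% had a grade difference opposite to their ER difference in these 2 sets. The strongly stained tumors had taken part in choosing the 20 genes, and the tumors of scores 3 to 6 had not.

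To show single tumors, the positions of the 20 genes were averaged in each tumor. The low and high malignant tumors chose these genes and set 0 and 1, so the distance between these 2 groups is built in. Grade 3 was also far more common in the low group, so its low values there are partly built in. The intermediate tumors had no part in the choice. In the low group, the median of this average was -0.421 for the 11 grade 3 tumors and 0.882 for the 6 tumors of grade 1 or 2. In the intermediate group it was -0.0404 for 7 grade 3 tumors and 1.05 for 31 others, and in the high group -0.0316 for 5 and 1.16 for 53. Weakly stained tumors of low grade thus mostly lay with the strongly stained ones, with 2 of the 6 below 0, and strongly stained tumors of grade 3 mostly lay with the weakly stained ones, with 1 of the 5 above 1. An average under 0.5 was found in 11 of 17 low tumors (9 of grade 3), 13 of 38 intermediate tumors (6 of grade 3) and 10 of 58 high tumors (4 of grade 3).

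**Figure D5:**
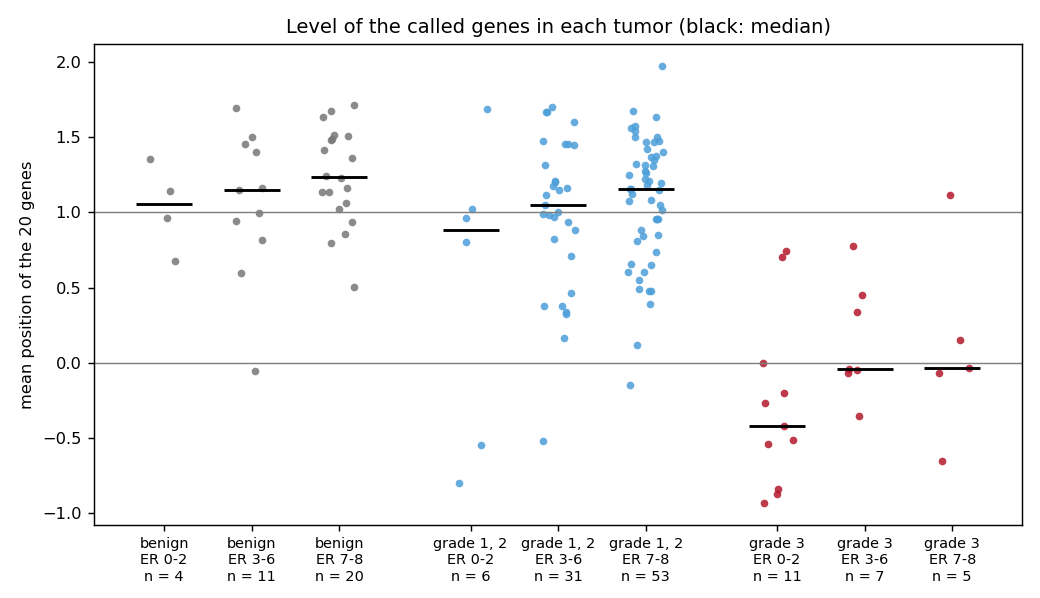
Average position of the 20 called genes (y axis, 0 at the mean of scores 0 to 2 and 1 at the mean of scores 7 to 8) in each tumor, by benign status or grade and ER group (x axis); black bars are medians. Grade 3 tumors have medians of -0.421, -0.0404 and -0.0316 in the 3 ER groups, and tumors of grade 1 or 2 have 0.882, 1.05 and 1.16. The malignant tumors of scores 0 to 2 and 7 to 8 chose the genes and set the scale.

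Comparisons within 1 class had fewer tumors. Among grade 3 carcinomas (11 low, 5 high), limma called 0 of 14378 genes, with 211 at an unadjusted p under 0.05. Of the 20 genes, 15 had the direction of the whole comparison (57.9% of all genes), at a median absolute difference of 0.587. ENSCAFG00000032243 was turned, at -0.50 (SE 0.70), and so was ENSCAFG00000002011, at -0.67 (SE 0.67), and both 95% confidence intervals held 0 (-1.97 to 0.97 and -2.07 to 0.73). Among tumors of grade 1 or 2 (6 low, 53 high), 0 of 14446 genes were called and 441 had an unadjusted limma p under 0.05, and all 20 genes kept the direction (69.3% of all genes) at a median absolute difference of 0.788. Among simple carcinomas (14 low, 30 high), 0 of 14457 genes were called and 1462 had an unadjusted limma p under 0.05. Here all 20 genes kept the direction (88.2% of all genes) and the size, with a median absolute difference of 1.59 and limma adjusted p-values of 0.139 to 0.241. Grade was not held in that comparison.

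Benign tumors, none of which entered the first comparison, were compared next. The weakly stained ones were of complex or mixed histology, while many of the strongly stained ones were simple. Histology was not a term in this fit, so it cannot be told apart from ER group here. With 4 benign tumors at scores 0 to 2 and 20 at 7 to 8, limma called 0 of 14312 genes, with 2151 (15.0%) at an unadjusted p under 0.05. This number rested largely on 1 tumor. It was 272 without the weakly stained CMT-156, 2682 to 3418 without any other of the 4, and 1242 after quantile normalization. Of the 20 genes, 19 passed the filter on low levels and 13 had the direction of the malignant tumors (56.4% of all genes), which were 11 of the 13 that rose and 2 of the 6 that fell. The average position of the 4 weakly stained benign tumors had a median of 1.05, at the level of strongly stained carcinomas, and that of the 20 strongly stained ones 1.23. ENSCAFG00000032243 had a median of 11.3 FPKM in the 4 and of 40.04 FPKM in the 20 benign tumors (difference 1.07, SE 0.78, limma adjusted p = 0.497).

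The adjacent normal tissue of the same dogs, grouped by the score of the tumor, gave the last comparison. Limma called 0 of 14520 genes between 7 tissues beside low tumors and 20 beside high tumors, and 147 (1.01%) had an unadjusted p under 0.05. Of 19 genes tested, 9 had the direction of the tumors (45.9% of all genes), 4 of 13 that rose and 5 of 6 that fell. ENSCAFG00000000656 had a median of 23.9 FPKM beside low tumors and 7.93 beside high tumors, a difference of -1.11 (SE 0.64, limma adjusted p = 1.00), the largest among the 19.

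The count of 20 depended on single tumors. When each of the 75 tumors was left out in turn, the count ran from 0 to 126. Of the named genes, ENSCAFG00000010888 lost its call in 49 of these 75 fits and ENSCAFG00000032243 in 33. ENSCAFG00000002011 lost it in 10 and ENSCAFG00000000656 in 9. All 20 genes kept their direction, with absolute differences of at least 0.871 and unadjusted limma p-values of at most 0.0012. Nearly all the tumors that had chosen these genes stayed in each fit, so the kept direction is no separate evidence. The count was 0 without any 1 of 7 low tumors (CMT-077, CMT-105, CMT-193, CMT-262, CMT-318, CMT-439 and CMT-632). It was 126 without CMT-241, 94 without CMT-301, 85 without CMT-354 and 81 without CMT-242, all from the low group. Leaving out any of the 17 low tumors, or 43 of the 58 high tumors, moved the count by over 1.5 times. With surgery year in the fit the count was 0 (smallest limma adjusted p 0.0693), and it was 0 within the surgeries of 2016 (5 low, 10 high) and of 2017 (12 low, 39 high), where the 20 genes kept their direction (71.6% and 82.1% of all genes) with median absolute differences of 1.44 and 1.39. The surgeries of 2018 held 9 of the 58 high tumors and 0 of the 17 low tumors, so year and ER group partly overlap. The tumors within a grade, histology class or surgery year had also taken part in choosing the 20 genes, so a kept direction there is no separate evidence.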

How the data were processed

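The authors mapped poly(A) RNA-seq reads of dog mammary tumors and adjacent normal tissues to CanFam3.1 with TopHat2 2.0.9 and Ensembl annotation, with a stranded setting, and deposited FPKM values from Cufflinks 2.1.1 in 1 table of 24580 identifiers and 222 libraries. The table gives no counts, so depth and counting intervals are unknown from it; of 86395 low values, 73.6% came within 0.1 of whole steps (20% if spread evenly), too few to recover reads. No libraries had identical values.

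ER scores, surgery year and neuter status came from the labels, and malignancy, histology, grade, lymphatic invasion, HER2 score and basal class from the study's clinical table. Tumor CMT-351 has no line there and was left out. The groups and lists were chosen with earlier results of these data known.

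The limma package (version 3.58.1, R 4.3.3) was run with its trend option on log2(FPKM + 1), for identifiers averaging at least 0.5 FPKM in the libraries compared, with two-sided p-values adjusted by Benjamini-Hochberg over all of them. Calls required both an adjusted p below 0.05 and a change of 1 log2 unit or more (slope of at least 0.33 per point over scores 3 to 6). Shares were compared with two-sided Fisher's exact tests in scipy 1.17.1, adjusted over 8 tables. The fit without covariates was tested on simulated data with independent genes. Those data held neither the overlap of ER group and grade nor the correlation between genes. Named genes were the 2 identifiers in each direction with the largest difference among called genes with a mean of at least 5 FPKM in the higher group. The planned lists of estrogen response, proliferation and cell type marker genes needed gene names and were not analysed here. Alternatives changed the pseudocount, filter, normalization, covariates and tumors included. Tumors are separate dogs.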

Additional observations from a re-analysis of the deposited data

Results flagged for a closer look

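In 15 checks of the named genes and the share of reads mapped, in groups of 4 to 10 tumors or adjacent normal tissues, 2 had a tumor far from the others. The cutoff flags about 1 in 20 by chance for normally distributed values. Values near 0 FPKM need not be so distributed, and their chance rate is not known. Among the 5 grade 3 tumors of scores 7 to 8, CMT-471 had 6.67 FPKM of ENSCAFG00000002011 (2.94 on the log2(FPKM + 1) scale) and the next highest 0.207 FPKM (0.27). Among the 4 benign tumors of scores 0 to 2, CMT-442 had 1.09 FPKM of ENSCAFG00000010888 (1.06 on the log2(FPKM + 1) scale) and the next highest 0.0379 FPKM (0.05).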

How the results depend on the processing

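Against 20 genes called between scores 7 to 8 and 0 to 2, the count was 52 with a pseudocount of 0.1, 9 without a filter on low values, 48 after quantile normalization, 54 with the share of reads mapped and 52 with neuter status as a covariate, 94 with score 8 alone as the high group, 7 with malignancy from the labels and 60 with the rare histologies added. It was 0 with surgery year. Of the 20, between 7 and 20 were called again in these settings other than surgery year. In settings chosen after seeing the data it was 0 with grade, with histology class, within grades 1 and 2, within 2016 and within 2017, and 0 to 126 with 1 tumor left out. The slope over scores 3 to 6 gave 0 calls, but 3 with the pseudocount of 0.1, 5 after quantile normalization and 5 with the share of reads mapped. The comparison of benign tumors gave 0 to 3 calls with 1 weakly stained tumor left out, and that of grade 3 carcinomas 0 with 1 strongly stained tumor left out. The median position of scores 3 to 6 was 0.641 with score 8 alone, over the 94 genes called there, against 0.863 over the 20 genes and 0.724 to 0.906 in the other settings that gave a value. The slope over all scores, itself chosen after seeing the data, gave 121 calls, 0 with grade, 78 with histology class and 291 with a pseudocount of 0.1. The difference in simple histology was 28.6 percentage points with malignancy from the labels (adjusted p = 0.0753) and 19.2 with rare histologies added (adjusted p = 0.216, Fisher's exact test). Of 56 settings of the 4 named genes, 25 kept the call, 31 lost it and 0 turned direction. The causes of these changes were not tested. ER group and grade overlap so far in these tumors that few of them separate the pair. No paired analysis was possible because the tumors compared come from different dogs and carry no replicate numbers.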
